A study of Mus musculus with 10 samples.

Results

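Anti-miR-501-3p was compared with a scramble control in primary hippocampal neurons of the mouse, across all genes, from raw counts per gene. The 6 libraries of the comparison were chosen by their labels, 4 titled antimir501 and 2 titled control, out of 10 libraries in the series. Both groups were cultures given lipid nanoparticles at day 10 in vitro and harvested 48 h later, at day 12. The particles carried scramble RNA in the controls and an inhibitor of miR-501-3p in the treated cultures, so delivery by lipid particles is common to both groups. The other 4 libraries received anti-miR-409-5p in the same way and are used here only where stated. Strain, sex and age of the donor embryos or pups are not given in the sources used here, and the labels do not say whether the libraries of a group are separate cultures. The p-values therefore measure the spread between these libraries, which may be technical. By its title and design the series asks how neurons respond when microRNAs linked to physical exercise are silenced.

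A microRNA is a short RNA that guides Argonaute proteins to messenger RNAs. Pairing between its seed, bases 2 to 8 from its 5′ end, and a site in the 3′ untranslated region (3′ UTR) usually lowers the stability or translation of the message, and an anti-miR is a complementary oligonucleotide that blocks that pairing. Mir501 lies on chromosome X in a cluster of microRNAs inside Clcn5, a gene for an endosomal chloride-proton exchanger. The mature sequences from RefSeq (GRCm38.p6, chromosome X, minus strand) are shown because miR-500-3p has the same seed as the inhibited microRNA, so that a seed site cannot tell them apart. The seed is in capitals.
mmu-miR-501-3p: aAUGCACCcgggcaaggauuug
mmu-miR-500-3p: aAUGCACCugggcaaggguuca
They differed at 4 positions counted from the 5′ end, C9U, A18G, U21C and G22A, all outside the seed. The libraries were made from polyadenylated RNA, and Mir501, Mir500, Mir362, Mir188 and Mir532, all inside Clcn5, had 0 counts in all 10 libraries, so the inhibited microRNA itself gave no check of the treatment. Clcn5 had 40.3 and 45.8 CPM in the controls (counts per 1000000 counted reads of the library) and 48.8, 50.2, 48.7 and 49.2 CPM in the treated libraries, a log2 fold change of 0.19 in raw counts (adjusted p = 0.010, but 0.10 with adjusted p = 0.279 without control 1) and 0.02 after the correction described next (adjusted p = 0.819).

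Sites for this seed were read from the 3′ UTRs of mm10 transcripts, and 6 genes that rose in both analyses described below and hold a full 8-base site (GGTGCATA, in capitals, 11 bases of context on either side) are shown as examples of what a candidate target looks like. Each is printed 5′ to 3′ on the strand of its gene.
Scai, chr2:39070016-39070045, minus strand: ggccagcttctGGTGCATAgtaagtttcag
Osbpl8, chr10:111297067-111297096, plus strand: aattctcttaaGGTGCATAgtaaatgtata
Lin7c, chr2:109899050-109899079, plus strand: agaaaagcgttGGTGCATAtagaacagtac
Fam126b, chr1:58527587-58527616, minus strand: agaggctttgtGGTGCATAaggaaggtatc
Impad1, chr4:4767435-4767464, minus strand: gtcatatacaaGGTGCATAtatatatatgt
Zc2hc1a, chr3:7552726-7552755, plus strand: agtccagctaaGGTGCATAttttccttttc
A match of letters is a description of the transcript and was not tested as a site of binding.

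The 6 libraries held 26441569 to 29871556 counts, and 16884 of 48709 genes had enough counts to be tested. The treated libraries differed from the controls in 2 features that run across all genes. The slope of log2 counts on transcript GC content, per 10 percentage points, was 0.263 and 0.197 in the controls and 0.00853, -0.0851, -0.0911 and -0.127 in treated libraries 1 to 4. The share of counts on mitochondrial genes was 2.59% and 2.78% in the controls and 3.33%, 3.69%, 3.81% and 3.95% in the treated libraries. Neither measure overlapped between the groups. For both, the exact two-sided permutation test gave p = 0.0667, the smallest p that 15 splits of 6 libraries allow. What produced the GC slope was not tested.

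In raw counts, 5579 genes passed an adjusted p of 0.05 in edgeR's quasi-likelihood test, 33% of those tested. Of them, 2974 (17.6%) were higher under anti-miR-501-3p and 2605 (15.4%) lower. The balance of directions depended on the scaling. Higher calls were 53.3% of all calls with TMM factors, 41.3% with upper-quartile factors and 39.4% with total counts. Fold changes followed GC content closely. The median log2 fold change was 0.90 in the 41 genes of at most 35% GC, 0.22 in the 2594 genes of 40 to 45% and -0.24 in the 567 genes above 60%. Across 12832 genes, Spearman's rho between fold change and GC content was -0.799, and these genes share the same 6 libraries. Genes higher in raw counts had a median GC content of 42.4%, those lower 56.3%, and all tested genes 49.5%.

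**Figure D1:**
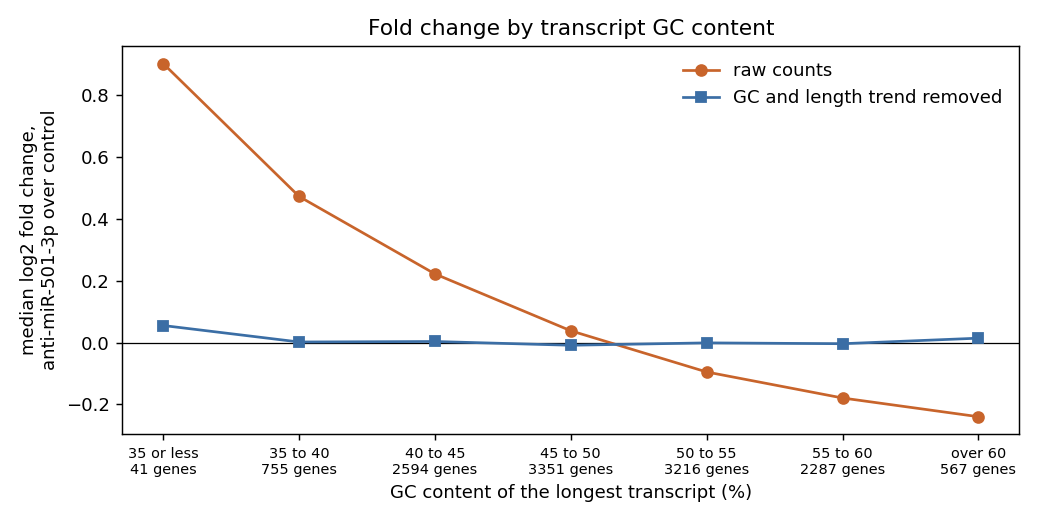
Median log2 fold change of anti-miR-501-3p over control (vertical axis) for genes binned by the GC content of their longest transcript (horizontal axis, percent, with the genes per bin), from raw counts (circles) and after that trend was removed per library, with length (squares). The raw medians fall from 0.90 to -0.24 from the lowest to the highest bin, while the other medians lie between -0.01 and 0.06.

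The trend of each library on transcript GC content and length was then removed, and the test repeated. With the trend removed, 1712 genes passed (10.1% of those tested), 931 higher (5.51%) and 781 lower (4.63%), and rho with GC content was 0.001. Genes called in both analyses in the same direction are said below to hold. In all 1044 genes held (6.18% of those tested), 798 higher (4.73%) and 246 lower (1.46%). They were 26.8% of the genes higher in raw counts and 9.44% of those lower. A further 547 genes were called with the trend removed but not in raw counts, 129 higher and 418 lower. The balance of directions among held genes therefore depends on the rule, which also asks for the raw call. At 40 to 45% GC, where raw values were mostly higher, 346 genes held higher and 14 lower. Most of what held was small in size. The median absolute log2 fold change of these genes was 0.40 in raw counts and 0.24 with the trend removed, against a median standard error of 0.049. Only 34 genes held with more than a 2-fold difference in both analyses, 29 of them higher.

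Control 1 weighed heavily on these counts. Without it, 1826 genes were called in raw counts, 501 with the trend removed, and 289 held, 268 higher and 21 lower. Without control 2, 830 genes held. The lone control left in such a refit is assumed to vary like the other groups. To name genes that did not rest on a single library or setting, each gene was followed through 22 refits, 10 that left out each library of the series in turn and 12 that changed the scaling, the filter, the form of the trend, the transcript used for GC content, the tool or the libraries in the fit. Of the 1044 genes, 230 held in all 22 refits, 222 higher and 8 lower. These are called stable below. Stability here covers those 22 refits alone, all of which share the control libraries or a single one of them. Left out were the refit that removed the trend on length alone, which kept the GC trend, and the refit of raw counts with a surrogate variable. Stability concerns the call and its direction, not the size of the change. Sizes with the trend removed could differ when the median GC content and length over a gene's transcripts replaced those of the longest. Such values are given below for some stable genes.

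**Figure D2:**
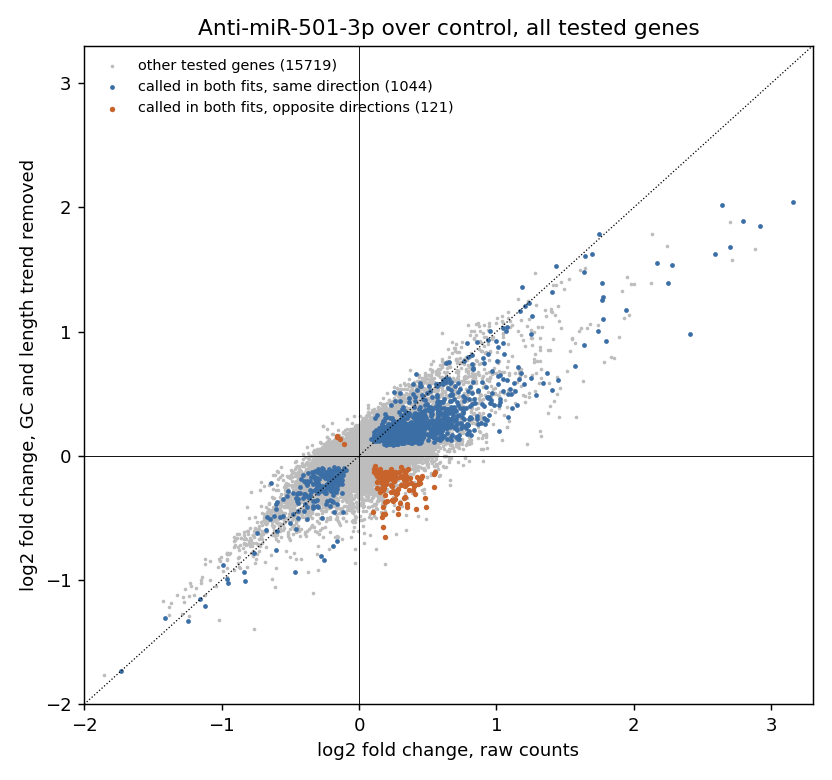
Log2 fold change of anti-miR-501-3p over control from raw counts (horizontal axis) and with the GC and length trend removed (vertical axis), 1 point per tested gene, with the line of equal values dotted. The 1044 genes that hold lie in the upper right and lower left, mostly closer to 0 on the vertical axis, the 121 orange genes were called in opposite directions, and 1 gene lies outside the axes.

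Of the 12 protein-coding genes with the largest rises that held, 4 were stable, Zxdb, Zfp994, Zfp942 and Zfp944, all encoding zinc finger proteins. Zxdb on chromosome X (94724569 to 94730187) had 2.28 and 3.14 CPM in the controls and 7.23, 9.17, 10.4 and 9.80 CPM in the treated libraries. The log2 fold change was 1.75 ± 0.20 (SE) in raw counts and 1.78 ± 0.21 with the trend removed (adjusted p = 0.000267), so that the correction left it where it was. Zfp944 had 7.54 and 7.38 CPM in the controls against 14.9, 16.6, 16.98 and 18.1 CPM. Every treated library lay above both controls in both genes. The log2 fold change of Zfp944 fell from 1.16 to 0.71 with the trend removed (adjusted p = 5.64e-06). Zfp942 went from 1.17 to 0.62 (adjusted p = 1.48e-06) and Zfp994 from 1.18 to 0.66 (adjusted p = 3.23e-05).

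These zinc finger genes are neighbours. Zfp942 (21926960 to 21962464), Zfp943, Zfp994 (22197265 to 22225616) and Zfp944 (22337989 to 22361400) lie within a single stretch of chromosome 17, and related genes of this kind are near copies of each other, so reads could be split between them by the counting. Zfp943 was stable as well, with 10.3 and 10.6 CPM in the controls and 18.6, 20.8, 21.6 and 24.2 CPM in the treated libraries (0.46 with the trend removed, adjusted p = 0.000162). In the same stretch, Zfp758 had a log2 fold change of 0.67 with the trend removed (adjusted p = 0.000705, and 0.107 without control 1), and Zfp946 had 0.26 (adjusted p = 0.0589). Over all genes named Zfp the picture was different. Of 370 tested, 122 were higher in raw counts and 34 lower. Only 20 held higher (5.41%) and 5 lower (1.35%), close to the 4.73% and 1.46% of all tested genes. The median log2 fold change was 0.12 in raw counts and 0.01 with the trend removed. Without control 1, 6 held higher.

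The other large rises rested on fewer libraries. Lypla1, an acyl-protein thioesterase that removes palmitate from proteins, had 7.22 and 7.75 CPM in the controls and 21.4, 26.6, 27.3 and 26.8 CPM in the treated libraries. On the log2 scale the fold change was 1.77 in raw counts and 1.39 with the trend removed (adjusted p = 0.0144), but 0.151 without control 1 and 0.0866 without control 2. Arxes2 on chromosome X rose from 20.3 and 23.9 CPM to 54.0, 60.8, 64.7 and 55.2 CPM, with 1.32 on the log2 scale and the trend removed (adjusted p = 0.00337, and 0.0609 without control 1). For both genes the groups were far apart, and the loss of the call came with a single control left. Gm38393 (0.92, adjusted p = 0.0445) held in 3 of the 10 refits without a library, Prrg1 in 5 (adjusted p = 0.0895 with the replicate number as a block), Gulp1 in 6, and Tmed5 and Tmem47 in 9 each.

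**Figure D3:**
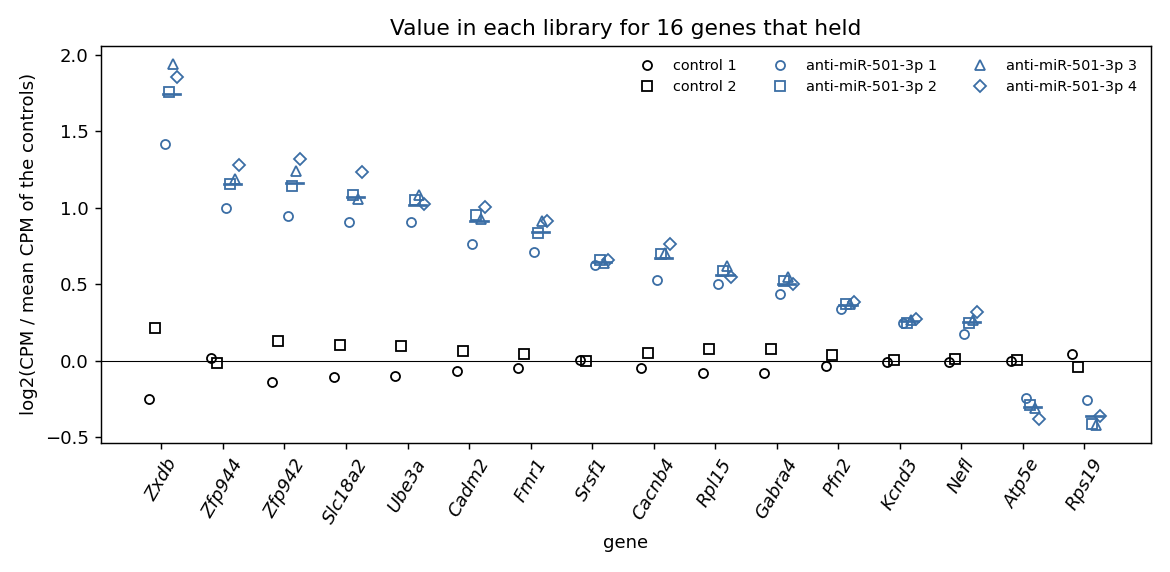
Log2 ratio of CPM to the mean CPM of the controls (vertical axis) in each library for 16 genes that held (horizontal axis), from raw counts scaled by TMM, with controls in black, anti-miR-501-3p libraries in blue and a bar at the mean of the treated libraries. All 4 treated libraries lie above both controls in 14 genes and below both in Atp5e and Rps19, and treated library 1 is often the closest to the controls. The genes were picked for the plot after their values were seen.

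Falls were smaller and none of the largest was stable. Among the 12 largest protein-coding falls that held, Mapkapk3, a kinase downstream of p38, had 3.98 and 3.57 CPM in the controls and 2.15, 2.31, 2.68 and 1.93 CPM in the treated libraries. Its log2 fold change was -0.74 in raw counts and -0.62 with the trend removed (adjusted p = 0.0077). The others included Cdt1 and Gtse1, which act in DNA replication licensing and in mitosis, Cebpd, a transcription factor, Etfb, a subunit of the mitochondrial electron transfer flavoprotein, and Prr7, a protein of the postsynaptic density. They lay at -0.49 for Cdt1 and Gtse1, -0.48 for Cebpd, -0.39 for Etfb and -0.22 for Prr7 with the trend removed. With the replicate number as a block, adjusted p was 0.0562 for Cdt1, 0.0779 for Lpin3, 0.0916 for Etfb and 0.0955 for Prr7. Without control 1, the adjusted p of the 12 genes with the trend removed ranged from 0.118 (Ccdc85c) to 0.646 (Phf21b). The 8 stable falls of the whole data set, singled out after their values were seen, were Atp5e, Rps19, Ndufa7, Nop10, Pgam5, Timp4, Rtn2 and Gpr135.

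Splicing factors held in 34.9% of genes, against 6.18% of all tested genes, the highest share among the lists of nuclear genes. No test compared the lists. The median GC content of the list was 44.1%, against 49.5% of all tested genes. Held rises were more frequent at such GC content, with 346 of the 2594 genes of 40 to 45% GC. Of 43 splicing factors tested, 31 were higher in raw counts and 1 lower, 15 held higher and none lower, and 7 were stable. The median log2 fold change of the list was 0.31 in raw counts and 0.10 with the trend removed, against -0.01 and 0.00 over all tested genes. Without control 1, 8 held, and without control 2, 10. The rises that held were mostly SR proteins, which bind exonic enhancers and recruit the spliceosome. Srsf1 had 136.6 and 135.8 CPM in the controls and 210.0, 214.8, 212.4 and 215.3 CPM in the treated libraries. The log2 fold change was 0.65 ± 0.068 in raw counts and 0.31 ± 0.041 with the trend removed (adjusted p = 4.32e-05). Srsf2 had 88.3 and 89.5 CPM against 106.0, 112.4, 113.0 and 110.9 CPM. Unlike most of the list it was larger with the trend removed, 0.38 against 0.31 (adjusted p = 3.16e-05), but it was 0.22 with the median GC content over transcripts. Srsf10 rose by 0.35 (adjusted p = 0.000144), Srsf7 by 0.24 (adjusted p = 0.000211) and Hnrnpk, an RNA-binding protein of the hnRNP family, by 0.17 (adjusted p = 0.00094). In all 5 genes every treated library lay above both controls. Srsf3 rose by 0.25 (adjusted p = 0.00366, and 0.0819 without control 1). In the other direction, 4 members were higher in raw counts and lower with the trend removed.

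Transcripts of ion channels that shape neuronal firing held upward in a few genes. None held downward, but in lists of this size few would, as 1.46% of all tested genes held lower. Of 41 potassium and HCN channel genes, 12 were higher and 11 lower in raw counts. In this list 5 held higher (12.2%, against 4.73% of all tested genes) and none lower. Without control 1, 2 held, the stable genes Kcnd3 and Kcnq5. Kcnd3, the Kv4.3 subunit of the A-type current, had 134.7 and 135.9 CPM in the controls and 160.4, 160.7, 162.3 and 163.5 CPM in the treated libraries, the tightest groups among these genes. On the log2 scale the fold change was 0.26 in raw counts and 0.23 with the trend removed (adjusted p = 2.91e-05). Kcnq5, a subunit of the M-current, had 0.18 with the trend removed (adjusted p = 0.00084). Kcnj3, a G protein-gated inward rectifier, rose by 0.34 (adjusted p = 0.00271, and 0.069 without control 1). Of 23 sodium and calcium channel subunits, 7 were higher and 5 lower in raw counts, and 2 were called in opposite directions. In this list 3 held higher (13%, against 4.73% of all tested genes) and none lower. Both auxiliary calcium channel subunits among these 3 were stable. Cacnb4 had 52.4 and 55.9 CPM against 78.0, 87.8, 88.2 and 91.8 CPM, and 0.31 with the trend removed (adjusted p = 1.69e-05). Cacna2d1 had 169.5 and 191.9 CPM against 248.3, 273.9, 274.1 and 278.6 CPM, and 0.22 with the trend removed (adjusted p = 0.000113). Cacna1e rose by 0.12 (adjusted p = 0.00713, and 0.202 without control 1).

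GABA-A receptors are chloride channels that carry fast inhibition. Of 20 genes for GABA receptors and the inhibitory postsynapse, 12 were higher and 2 lower in raw counts. Of these 20, 4 held higher (20%, against 4.73% of all tested genes) and none lower, and 2 were called in opposite directions. Gabra4, the alpha4 subunit, was the stable member. It had 78.2 and 87.5 CPM in the controls and 111.9, 119.1, 121.1 and 117.3 CPM in the treated libraries, with a log2 fold change of 0.50 in raw counts and 0.26 with the trend removed (adjusted p = 8.61e-05). Without control 1 the list held 1 gene higher.

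Regulators of actin and of dendritic spines held upward in 6 of 39 genes (15.4%, against 4.73% of all tested genes). None held downward, against 1.46% of all tested genes. In raw counts 13 were higher and 7 lower, and with the trend removed 7 were higher and 3 lower. The stable members were Pfn2, Wasl and Fmr1. Pfn2, the neuronal profilin that feeds actin monomers to growing filaments, had 492.3 and 518.5 CPM in the controls and 637.8, 654.5, 652.7 and 657.9 CPM in the treated libraries. Its log2 fold change was 0.36 ± 0.037 in raw counts and 0.46 ± 0.038 with the trend removed (adjusted p = 4.58e-07). With the median GC content over transcripts it was 0.22, so its size depended on the transcript used. Wasl (N-WASP), which switches on the Arp2/3 complex, rose by 0.26 (adjusted p = 0.000988). Fmr1, whose product represses translation at synapses, had 53.9 and 57.5 CPM against 91.2, 99.2, 104.7 and 105.0 CPM, and 0.42 with the trend removed (adjusted p = 0.00135). Abi2, of the WAVE complex, rose by 0.19 (adjusted p = 0.000797, and 0.108 without control 1). Cdc42 depended on the transcript used for GC content, with 0.13 for the longest transcript (adjusted p = 0.00572) and -0.01 for the median over transcripts (adjusted p = 0.949). Without control 1, 3 genes of the list held.

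Core synaptic genes held in both directions. The held share was 11.6% for glutamate receptors and the postsynaptic density, 11.4% for vesicles and release and 13.2% for adhesion genes, against 6.18% of all tested genes. Of 43 genes for glutamate receptors and the postsynaptic density, 12 were higher and 15 lower in raw counts, 3 held higher and 2 lower, and 4 were called in opposite directions. Grm5 and Grin2a, a metabotropic and an NMDA receptor subunit, rose by 0.15 and 0.21 with the trend removed (adjusted p = 0.00185 and 0.004), and without control 1 the values were 0.0748 and 0.276. Of 44 genes for synaptic vesicles and release, 10 were higher and 14 lower in raw counts, and 4 held higher and 1 lower. Without control 1, none of either list held higher. The falls of Dlg4 (PSD-95), at -0.26, and Syp (synaptophysin), at -0.28, held in the main analysis (adjusted p = 7.91e-05 and 1.92e-05). They did not with the median GC content over transcripts, where adjusted p was 0.994 and 0.984. Of 38 synaptic adhesion genes, 17 were higher and 7 lower in raw counts, and 4 held higher and 1 lower. Cadm2, a cell adhesion molecule of the SynCAM family, was stable, with 117.6 and 128.5 CPM in the controls and 209.0, 238.3, 233.6 and 247.1 CPM in the treated libraries, 0.91 in raw counts and 0.30 with the trend removed (adjusted p = 3.12e-05). The trend-removed value of Cadm2 was 0.78 with the median GC content over transcripts. Cdh11, a cadherin, rose by 0.21 (adjusted p = 0.00121).

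Messages for ribosomes and for nuclear-encoded oxidative phosphorylation moved the other way. Of 77 nuclear genes of the respiratory chain and ATP synthase, 43 were lower and 1 higher in raw counts. Of these 77, 14 held lower (18.2%, against 1.46% of all tested genes) and 1 higher (1.3%, against 4.73%). The median log2 fold change of the list was -0.17 in raw counts and -0.09 with the trend removed. Its median GC content, 50.0%, was close to the 49.5% of all tested genes. Summed CPM keep the GC trend, and several lists did not overlap between the groups. Proteasome subunits summed to 3357 and 3417 CPM in the controls and 3219 to 3260 CPM in the treated libraries. Genes for GABA receptors and the inhibitory postsynapse summed to 4456 and 4716 CPM against 5010 to 5344 CPM. The respiratory chain and ATP synthase genes summed to 9491 and 9731 CPM in the controls and 8460 to 8868 CPM in the treated libraries, also without overlap. Without control 1, however, 2 genes held lower. Atp5e, the epsilon subunit of ATP synthase, was stable, with 96.8 and 97.1 CPM in the controls and 81.7, 79.4, 78.2 and 74.3 CPM in the treated libraries (-0.25 ± 0.041 with the trend removed, adjusted p = 0.00022). Uqcrq of complex III fell by 0.28 (adjusted p = 0.000362, and 0.0527 without control 1) and Cox6b1 of complex IV by 0.16 (adjusted p = 0.00313, and 0.11). Cycs, cytochrome c, rose by 0.51 (adjusted p = 0.00217, and 0.0502 without control 1).

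Of 79 cytosolic ribosomal protein genes, 34 were lower and 2 higher in raw counts. Of these 79, 8 held lower (10.1%, against 1.46% of all tested genes) and 1 higher (1.27%, against 4.73%). The median log2 fold change of the list was -0.21 in raw counts and -0.11 with the trend removed. Without control 1, 1 held lower, and without control 2, 5. Rps19 was the stable fall, with 30.7 and 28.9 CPM in the controls and 24.9, 22.3, 22.3 and 23.2 CPM in the treated libraries (-0.34 with the trend removed, adjusted p = 0.000487). Rpl15 went against the list and was stable too. It had 53.8 and 60.1 CPM against 80.7, 85.3, 87.3 and 83.2 CPM, with 0.56 in raw counts and 0.40 with the trend removed (adjusted p = 1.48e-06). With the median GC content over transcripts the value was 0.69. Ribosomal protein genes have many processed pseudogenes, so reads of these short messages may be split by the counting. Of 77 mitochondrial ribosomal proteins, 25 were lower and 2 higher in raw counts, and 17 were lower and none higher with the trend removed. Of these 77, 4 held lower (5.19%, against 1.46% of all tested genes) and none higher (against 4.73%). Without control 1 none held.

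**Figure D4:**
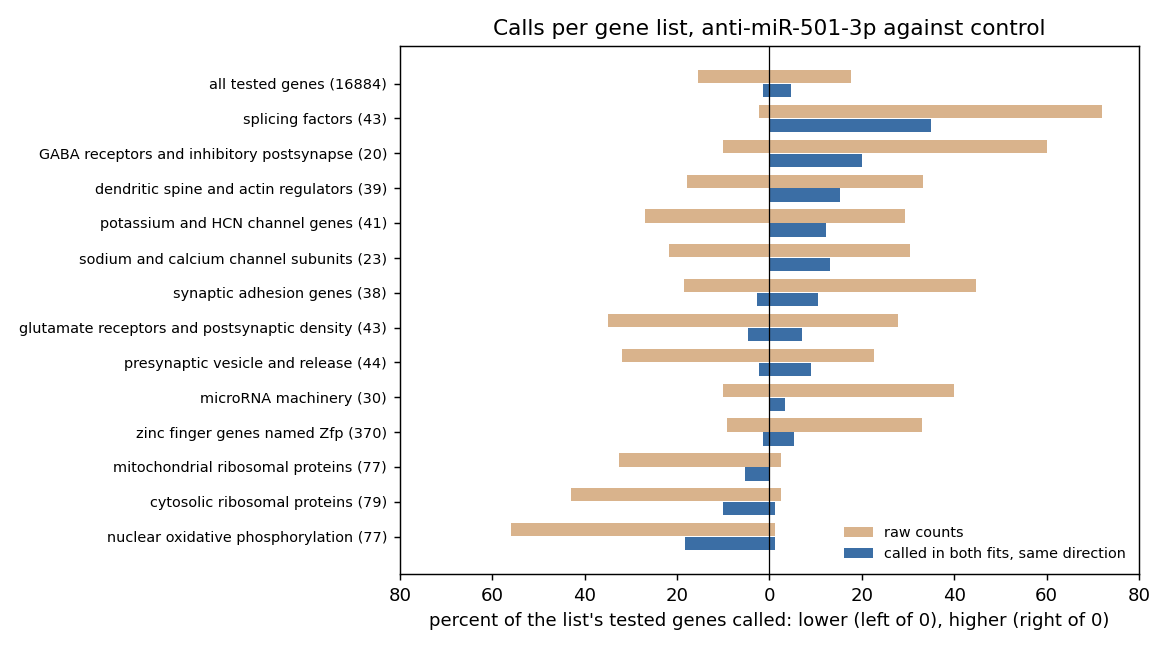
Percent of each list's tested genes (number in brackets) called lower (left of 0) or higher (right of 0) under anti-miR-501-3p, in raw counts (tan) and in both analyses in the same direction (blue), for 13 of the 42 lists, without those of the mitochondrial genome. Of the lists drawn, splicing factors reach furthest to the right and nuclear oxidative phosphorylation furthest to the left, and over all tested genes 4.73% held higher and 1.46% lower.

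Transcripts of the mitochondrial genome itself were higher in raw counts. Of 15 messenger and ribosomal RNA genes, 9 could be tested, all 9 were higher in raw counts, and the median log2 fold change was 0.68. With the trend removed the median was 0.07, and 1 gene was called lower, in the opposite direction to raw counts. Of the 9, 2 held higher (22.2%, against 4.73% of all tested genes). Counts of mt-Atp6, mt-Atp8, mt-Co2, mt-Co3, mt-Nd3 and mt-Nd4l were 0 in these tables, which makes the list incomplete. mt-Nd1, a subunit of complex I, was stable, with 2675 and 2800 CPM in the controls and 4359, 4394, 4578 and 5011 CPM in the treated libraries (0.74 in raw counts and 0.27 with the trend removed, adjusted p = 0.000178). In mt-Co1 a raw log2 fold change of 0.31 (adjusted p = 8.3e-06) became -0.02 (adjusted p = 0.808). Of 12 mitochondrial tRNA genes, 10 were higher in raw counts and 5 held higher (41.7%, against 4.73% of all tested genes). The median log2 fold change of these 12 genes was 1.92 in raw counts and 0.99 with the trend removed. Their levels were low and 2 held without control 1 and 1 without control 2. mt-Ta was stable, with 2.38 and 2.64 CPM in the controls and 14.6, 17.3, 14.9 and 18.7 CPM in the treated libraries (1.68 ± 0.24 with the trend removed, adjusted p = 0.00176). Polyadenylated RNA was selected, so counts on tRNA genes may come from precursor transcripts, and the kit does not mark strand.

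Noncoding transcripts had 37 rises and 8 falls that met the rule for naming. Gm16185 had 5.12 and 5.98 CPM in the controls and 14.1, 17.6, 17.6 and 16.95 CPM in the treated libraries, and 0.73 with the trend removed (adjusted p = 6.08e-05). Gm17066 had 0.68 and 0.90 CPM against 2.85, 4.04, 3.83 and 4.37 CPM, and 1.39 with the trend removed (adjusted p = 0.000184). Both were stable. Gm16185 is annotated as an antisense gene, whose reads cannot be told apart from those of a gene on the opposite strand. Of 23 nuclear-retained noncoding transcripts, 9 were higher in raw counts and none lower. Of the 23, 4 held higher (17.4%, against 4.73% of all tested genes). Rian, from the imprinted Dlk1-Dio3 region, was called in opposite directions. Among falls, Snhg8, the host of a small nucleolar RNA, had -0.50 with the trend removed (adjusted p = 0.00142, and 0.0903 without control 1).

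Ube3a, a ubiquitin ligase that neurons express from the maternal allele, stood out among 41 ubiquitin ligase genes. Of these, 17 were higher and 9 lower in raw counts. In all 4 held higher (9.76%, against 4.73% of all tested genes) and 1 lower (2.44%, against 1.46%). Fewer held higher without control 1. Ube3a had 81.1 and 93.1 CPM in the controls and 163.1, 180.7, 184.7 and 176.9 CPM in the treated libraries. The log2 fold change was 1.02 ± 0.12 in raw counts and 0.41 ± 0.040 with the trend removed (adjusted p = 1.18e-06). Ube3a was stable, and had 0.58 with the median GC content over transcripts. The antisense transcript Snhg14, which overlaps its 3′ end, had 49.2 and 56.1 CPM in the controls and 98.6, 142.8, 139.5 and 144.3 CPM in the treated libraries, with log2 fold changes of 1.32 and 0.20 (adjusted p = 0.0115 and 0.352). Reads from both strands cannot be told apart with this kit. Slc18a2, the vesicular monoamine transporter, was stable among 287 solute carriers, of which 14 held higher and 2 lower (5 higher without control 1). It had 2.17 and 2.51 CPM against 4.38, 4.96, 4.86 and 5.49 CPM, and 1.01 with the trend removed (adjusted p = 6.84e-05). The share of solute carriers that held higher was 4.88%, close to the 4.73% of all tested genes. Slc1a1, a neuronal glutamate transporter, rose by 0.29 (adjusted p = 6.35e-05) and was stable.

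Genes linked to exercise and neurotrophins were called in raw counts in 57.1% of cases, against 33% of all tested genes, and 17.9% held, against 6.18%. Of 28, 10 were higher and 6 lower in raw counts, 4 held higher and 1 lower, and without control 1, 1 held higher. The median log2 fold change was -0.04 in raw counts and 0.01 with the trend removed. Sirt1, a NAD-dependent deacetylase, was stable, with 11.03 and 10.6 CPM in the controls and 14.5, 16.6, 15.8 and 15.3 CPM in the treated libraries (0.35 with the trend removed, adjusted p = 0.00163). Bdnf was higher in raw counts, 56.9 and 60.3 CPM against 68.1, 76.3, 75.2 and 72.6 CPM (0.32, adjusted p = 0.000625), and had 0.00 with the trend removed (adjusted p = 0.981). Of 34 activity-regulated genes, 1 held higher and 1 lower (Egr3, adjusted p = 0.111 with the replicate block). Together they were 5.88% of that list, near the 6.18% of all tested genes. Of 30 genes of the microRNA machinery, 12 were higher and 3 lower in raw counts. Ddx6, a helicase of the repression complex, alone held (0.18, adjusted p = 0.000671) and was stable. That is 3.33% of the list, below the share of all tested genes.

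Of the stress and immune lists, those of p53 targets and apoptosis (18.8%) and of NRF2 targets (14.8%) held more often than the 6.18% of all tested genes, and those of interferon, inflammation, heat shock, unfolded proteins and hypoxia held in 0 to 5.88%. Among 28 tested interferon and RNA-sensing genes 2 were higher and 2 lower in raw counts and none was called with the trend removed. Among 17 inflammatory genes none held, and among 25 heat shock and chaperone genes none held. Of 40 genes of the integrated stress and unfolded protein response 1 held in each direction, of 27 NRF2 targets 2 in each direction, and of 34 genes of glycolysis and hypoxia 2 higher. Of 32 p53 targets and apoptosis genes 5 held higher and 1 lower, and without control 1 or without control 2, 1 held higher. Of 50 lysosome and autophagy genes 1 held higher and 3 lower, none of these lower without control 1. Lists of lysosome and autophagy, proteasome, cholesterol, chromatin, protocadherin and microtubule genes held in 2.78% to 8% of genes, against 6.18% of all tested genes. Of 36 proteasome subunits 1 held lower, of 28 cholesterol genes 1 higher, of 49 chromatin regulators 2 higher, and of 50 clustered protocadherins 2 in each direction. Of 41 genes of dendrites, axons and microtubules 1 held higher and 2 lower. Nefl, the neurofilament light chain, was the higher one and was stable, with 464.1 and 470.5 CPM in the controls and 528.3, 555.1, 560.6 and 583.2 CPM in the treated libraries (0.24 with the trend removed, adjusted p = 6.35e-05).

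Marker genes showed neurons together with astrocytes in all 6 libraries. The 20 pan-neuronal markers summed to 13640 and 13830 CPM in the controls and 13670 to 14380 CPM in the treated libraries, and the 18 astrocyte markers to 8267 and 8527 CPM and 8099 to 8421 CPM. In bulk samples, fewer cells of a type and less RNA per cell cannot be told apart. Excitatory markers summed to 5444 to 5489 CPM in the controls and to less, 5237 to 5391 CPM, in the treated libraries, without overlap. Inhibitory markers summed to 2068 to 2082 and 2041 to 2151 CPM and overlapped. Of 18 excitatory markers 2 held higher (11.1%, against 4.73% of all tested genes) and none lower. Of 18 inhibitory markers 2 held higher (11.1%) and 1 lower (5.56%, against 1.46% of all tested genes). Oligodendrocyte lineage markers summed to 490.1 and 677.7 CPM against 380.1 to 536.0 CPM. Of 14, 1 held higher (7.14%, against 4.73% of all tested genes), Mog, with adjusted p = 0.118 with the replicate block. Proliferating progenitor markers summed to 299.7 and 400.6 CPM against 267.9 to 363.2 CPM. Among 19, Cdt1 and Gtse1 held lower (10.5%, against 1.46% of all tested genes). The oligodendrocyte and progenitor sums overlapped between the groups and were highest in a control. Microglial markers summed to about 30 CPM in every library (29.7 to 34.0 CPM, Siglech at 0) and none of 8 tested was called. Endothelial markers were low, 15.4 and 18.9 CPM against 20.4 to 23.5 CPM, without overlap. Mural and fibroblast markers overlapped, at 1210 to 1411 and 1187 to 1367 CPM. The part of these markers in the gene changes was not tested.

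Held rises were unevenly spread over chromosomes. On chromosome X 62 of 578 tested genes held higher (10.7%) against 4.73% of all tested genes. Among the autosomes the share ran from 2.2% on chromosome 8 to 7.72% on chromosome 13. The median GC content of tested genes on X was 45.8%. Xist, which coats the inactive X chromosome in female cells, was stable, with 328.7 and 362.6 CPM in the controls and 470.3, 514.8, 504.9 and 494.8 CPM in the treated libraries (0.20 with the trend removed, adjusted p = 0.000479). The Y-linked genes Kdm5d, Uty and Ddx3y had -0.04, -0.02 and 0.15 with the trend removed (adjusted p = 0.655, 0.9 and 0.442), and Eif2s3y had -0.17 (adjusted p = 0.0173). The part that the mix of male and female cells had in the X-linked rises was not tested.

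Genes with a miR-501-3p seed site were higher more often in raw counts, and less so once GC content and UTR length were taken into account. A site was the 8-base motif GGTGCATA, or either run of 7 bases within it, on the transcript strand of the longest 3′ UTR. Of 14206 tested genes with a 3′ UTR, 1851 held a site and 230 the 8-base motif. In raw counts 33.4% of genes with a site were higher and 16.6% of those without. With the trend removed these shares were 9.83% and 5.47%, and the shares that were lower 6.21% and 5.14%. The median log2 fold change was then 0.01 with a site, 0.00 with the 8-base motif and 0.00 without. In all 172 genes with a site held higher (9.29%) and 17 lower, against 4.52% higher without a site. The 8-base motif had 17 held higher (7.39%). Without control 1, 56 genes with a site held higher, 5 of them with the 8-base motif.

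Genes with a site had longer 3′ UTRs, with a median of 2560 bases against 1065 bases, and long 3′ UTRs alone went with higher values. Spearman's rho between 3′ UTR length and fold change across the same genes was 0.421 in raw counts and 0.14 with the trend removed. Within the longest quartile of 3′ UTRs, 12.6% of genes with a site and 10.1% of genes without held higher. In the third quartile the shares were 6.94% and 6.2%, in the second 3.27% and 2.87%, and in the shortest 0% and 0.546%. For the 8-base motif the longest quartile had 9.35%, below genes without a site.

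**Figure D5:**
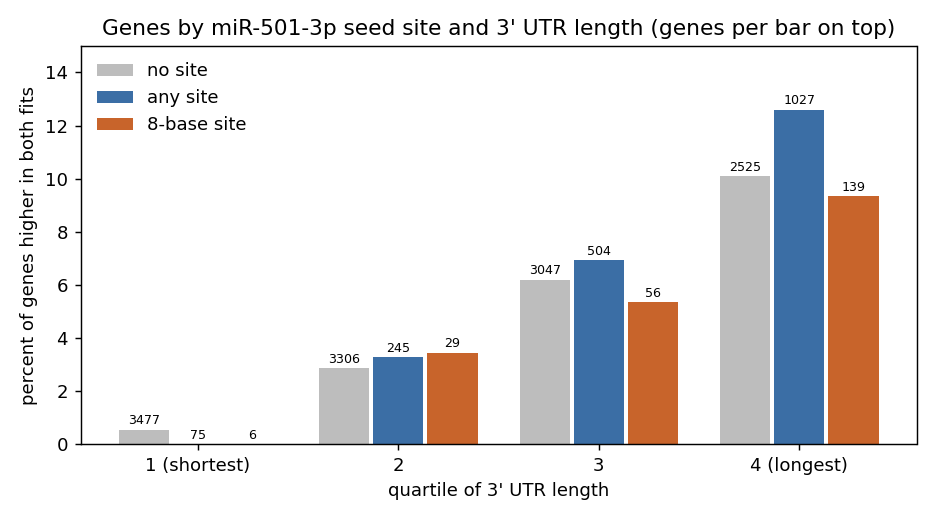
Percent of genes that held higher (vertical axis) by quartile of 3′ UTR length (horizontal axis), for genes with no miR-501-3p seed site (grey), any site (blue) and the 8-base motif (orange), with the number of genes above each bar. The share rises with 3′ UTR length in genes with and without a site, and reaches 12.6% and 10.1% in the longest quartile.

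Of the genes with an 8-base motif whose sites are shown above, Scai and Osbpl8 were stable. Scai, a cofactor that restrains MRTF-dependent transcription, had 99.0 and 108.4 CPM in the controls and 166.7, 204.5, 198.3 and 215.3 CPM in the treated libraries. On the log2 scale the fold change was 0.92 in raw counts and 0.26 with the trend removed (adjusted p = 4.32e-05), or 0.77 with the median GC content over transcripts. Osbpl8, a lipid transfer protein at contacts between the endoplasmic reticulum and the plasma membrane, had 91.2 and 95.1 CPM against 135.0, 145.7, 152.2 and 148.2 CPM, and 0.64 and 0.25 (adjusted p = 8.28e-05). All treated libraries lay above both controls in both genes. Impad1 rose by 0.31, Lin7c by 0.23, Fam126b by 0.18 and Zc2hc1a by 0.18 with the trend removed (adjusted p = 0.00391, 0.00136, 0.00228 and 0.00582). Without control 1 these values were 0.0834, 0.0689, 0.0995 and 0.0826, and for Zc2hc1a 0.0822 without control 2. Under anti-miR-409-5p, which shares the controls, Scai was at 0.20 and Osbpl8 at 0.20 with the trend removed (adjusted p = 0.00101 and 0.00136). In the direct test of the inhibitors with libraries paired by number, Scai was 0.14 and Fam126b 0.16 higher under anti-miR-501-3p in raw counts (adjusted p = 0.00908 and 0.00642). With the trend removed these differences were 0.06 and 0.09 (adjusted p = 0.259 and 0.0917), and none of the other four genes was called in either analysis.

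Some genes changed sides when the trend was removed. In 121 genes (0.717% of those tested) both analyses called a difference in opposite directions, 117 higher in raw counts and lower afterwards, and their median GC content was 38.7%. Rbbp6, a ubiquitin ligase with a role in RNA processing, had 84.2 and 87.0 CPM in the controls and 93.6, 96.3, 96.9 and 104.1 CPM in the treated libraries. Its log2 fold change was 0.19 in raw counts and -0.47 with the trend removed (adjusted p = 1.54e-06), but 0.03 with the median GC content over transcripts (adjusted p = 0.683). Snap25, of the vesicle fusion complex, had 0.34 and -0.12 (adjusted p = 0.00699), and 0.10 with that median. Homer1, a postsynaptic scaffold, had 0.42 and -0.17 (adjusted p = 0.0061), and 0.18 with that median. For these genes the direction depended on the transcript used. Among genes called in raw counts alone, Lrif1 went from 0.93 to 0.06 (adjusted p = 0.707), but to 0.41 with that median (adjusted p = 0.000242). Kcnk12, a potassium channel, went from -0.66 to -0.23 (adjusted p = 0.194), and to -0.28 with that median (adjusted p = 0.104).

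The authors' deposited table for this comparison listed 17722 genes, 4123 of them without an adjusted p. It gave 4488 genes an adjusted p under 0.05, 2565 higher and 1923 lower. Of these, 4422 were called with the same sign in raw counts here, and 945 held after the trend was removed.

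The direct comparison sets the inhibitors against each other and not against the controls, although the controls enter its scaling, trend and estimate of spread. Its outcome depended on whether libraries of the same replicate number were paired. Without pairing, no gene passed in raw counts in edgeR's test of anti-miR-501-3p against anti-miR-409-5p (0% of those tested, with 992 genes at an unadjusted p under 0.05), and DESeq2 called 3. With the trend removed edgeR called 1 gene (0.00592%, 1247 at an unadjusted p under 0.05) and DESeq2 25. With the replicate number as a block, 252 genes were called in raw counts (1.49%) and 189 with the trend removed (1.12%), and 155 in both in the same direction (0.918%), 83 with more and 72 with less RNA under anti-miR-501-3p. These differences were small, with a median absolute log2 difference of 0.18. Without any single pair of libraries, 48 to 122 genes were called in both, the fewest without pair 2. Of the original 155, 73, 34, 71 and 65 were among them without pairs 1 to 4. Of the 155 genes, 28 held against control and 6 were stable.

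Enzymes and regulators of glycolysis and the hypoxia response gave the most calls of the 42 lists in this paired comparison. Of 34 genes, 10 were higher under anti-miR-501-3p than under anti-miR-409-5p and 1 lower in both analyses, and without any single pair of libraries 7 to 9 were higher. Ldha, lactate dehydrogenase A, had 741.4, 683.2, 676.6 and 647.3 CPM under anti-miR-501-3p and 651.4, 636.6, 600.1 and 576.7 CPM under anti-miR-409-5p, so that each library lay above its partner of the same number although the groups overlapped. The log2 difference was 0.16 ± 0.021 (SE) with the trend removed (adjusted p = 0.000118). Pdk1, a kinase that holds back pyruvate entry into mitochondria, had 181.7, 174.4, 162.8 and 161.1 CPM against 149.8, 148.5, 149.8 and 150.1 CPM, without overlap (0.18, adjusted p = 0.00277). Bnip3, a mitophagy receptor induced by hypoxia, had 0.24 (adjusted p = 0.022, and 0.118 without pair 3). Others were the glycolytic enzymes Hk1 (0.10), Gpi1 (0.15), Pfkl (0.12), Tpi1 (0.10) and Eno2 (0.14), and Ddit4 (0.11) and Higd1a (0.17), which respond to hypoxia. Aldoc, an aldolase of astrocytes, was the lower one (-0.12, adjusted p = 0.00103). Against control the list had held in 2 genes. Its summed level was 9083 and 9315 CPM in the controls, 8660 to 9270 CPM under anti-miR-501-3p and 8096 to 8543 CPM under anti-miR-409-5p, so that anti-miR-501-3p overlapped the controls and anti-miR-409-5p lay below them.

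Markers of dividing and supporting cells differed as well. Of 19 proliferating progenitor markers 5 were lower under anti-miR-501-3p and none higher, and the summed level was lower in 4 of 4 pairs. Without pair 1, 7 were lower, without pair 3, 1, and without pairs 2 and 4 none. Mki67, which marks dividing cells, had 38.8, 25.9, 24.0 and 39.2 CPM against 44.2, 34.9, 37.3 and 48.8 CPM (-0.36, adjusted p = 0.0463). Its adjusted p was 0.0743 without pair 2 and 0.0852 without pair 4. Of 17 mural and fibroblast markers 3 were higher, and the sum was higher in each pair. Lum, a proteoglycan of fibroblasts, had 19.7, 26.7, 28.7 and 25.4 CPM against 16.3, 21.6, 23.6 and 16.96 CPM (0.33, adjusted p = 0.00103). Fn1, fibronectin, had a log2 difference of 0.39 (adjusted p = 0.00253). In raw counts its adjusted p was 0.0679 without pair 3. Of 18 astrocyte markers 3 were lower. Of 14 oligodendrocyte lineage markers Bcas1 and Olig1 were lower, the sum was lower in 4 of 4 pairs, and without pair 1, 6 were lower. The part of these cells in the other differences was not tested. The genes named in this and the preceding paragraph were chosen after their values were seen.

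Rgs11, a regulator of G protein signalling, was the gene called without pairing. It had 86.9, 91.8, 90.2 and 87.8 CPM under anti-miR-501-3p, a mean of 77.0 ± 3.36 CPM (SD, n = 4) under anti-miR-409-5p and 85.3 and 87.1 CPM in the controls. The difference was 0.22 on the log2 scale (adjusted p = 0.0106, and 2.97e-05 with pairing). Against control, Rgs11 had 0.05 in raw counts (adjusted p = 0.445) and 0.21 with the trend removed (adjusted p = 0.00116), so that it did not hold. Anti-miR-409-5p against control had -0.16 in raw counts (adjusted p = 0.0135) and -0.01 with the trend removed (adjusted p = 0.905). Most stable genes named above had similar values under both inhibitors. With the trend removed, Pfn2 was at 0.46 and 0.41, Ube3a at 0.41 and 0.34, Srsf1 at 0.31 and 0.28, and Atp5e at -0.25 and -0.22, under anti-miR-501-3p and anti-miR-409-5p. Each pair of values shares the 2 controls, so their likeness is no independent evidence. In the paired direct test, adjusted p with the trend removed was 0.164 for Pfn2, 0.352 for Ube3a, 0.863 for Srsf1 and 0.736 for Atp5e, which does not show that the inhibitors act alike. Zxdb was at 1.78 and 1.48, with a paired difference of 0.30 (adjusted p = 0.0209, and 0.698 without pairing). Without any single pair its adjusted p was 0.0595 to 0.245.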

How the data were processed

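RNA-seq was made from polyadenylated RNA of primary mouse hippocampal neurons with an unstranded kit and read as 50-base single ends, per the labels' protocols. Per the submitters' processing notes the tools were FastQC 0.11.5, STAR 2.5.2b and featureCounts of Subread 1.5.1, with the mm10 genome. Neither the annotation release nor the handling of multi-mapped reads is given in the sources used here. The authors deposited raw counts per gene for each library, whole numbers with no normalization, and these were the values tested. The authors' deposited comparison table gives log2 fold changes and p-values, used only where it is named. Libraries were grouped by their titles, and 0 columns belonged to no sample.

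Of 48709 genes, 48349 matched the mm10 annotation and 16884 passed edgeR's filter on low counts. edgeR 4.0.16 in R 4.3.3 (limma 3.58.1) was fitted to all 10 libraries, so that 3 groups share the estimate of spread, with TMM scaling, robust quasi-likelihood tests and Benjamini-Hochberg adjustment at 0.05. Standard errors were taken from the log2 fold change and its F statistic. The trend of log2 counts on GC content and length of the longest transcript was fitted per library with natural splines of 5 degrees of freedom, over genes of mean log2 CPM above 1, and entered as an offset, which a gene with no measured transcript did not get. 99.7% of tested genes had GC content and length. CPM values printed are TMM-scaled and keep the trend. The tests were tried on simulated data. DESeq2 1.42.0 and sva 3.50.0 served as alternatives. Depth over the 10 libraries ran from 22254788 counts in anti-miR-409-5p library 3 to 32096808 in anti-miR-409-5p library 4. A value from 2 controls is limited by their number.

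Genes were named by rule. They are the 12 largest rises and falls among protein-coding genes that held, with mean log2 CPM of at least 1 and all treated libraries on one side of both controls, up to 6 noncoding genes of each direction, up to 4 members of each of 42 gene lists by raw p and up to 4 that held, up to 6 rises with an 8-base site, 6 genes of each direction lost with the trend, 6 called in opposite directions, and Mir501 with its host gene and neighbours. The members and lists were chosen with earlier results of these data known, and the criterion of 22 refits was set after seeing the data. A few genes met this rule and are not reported here.

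Replicate numbers in the titles were checked for pairing. Deviations from group means in log2 CPM correlated between same-numbered libraries of both inhibitors at 0.375, 0.164, 0.121 and 0.306, and with the trend removed at 0.185, 0.196, 0.0808 and 0.199. For the 2 numbers that the controls share with anti-miR-501-3p they correlated at 0.359 and 0.211. The labels do not say what a number stands for. The block is given beside the printed results whose call it ends.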

Additional observations from a re-analysis of the deposited data

Results flagged for a closer look

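In 12 of the 160 genes examined, 1 of the 4 anti-miR-501-3p libraries stood apart from the other three in log2 CPM. The measure was its gap to the nearest library over the range of the group, set against Dixon's critical value. Chance flags about 1 gene in 20, and genes of the same library are not independent. In 11 of them it was library 1, whose GC slope of 0.00853 was the closest to the controls (0.263 and 0.197). The gap was 0.885 for Lypla1, 0.936 for Fam126b, 0.917 for Creb1, 0.86 for Lin7c, 0.933 for Snap25, 0.911 for Tmem47, 0.839 for Impad1, 0.852 for Cacna2d1, 0.858 for Grm5, 0.832 for Rian and 0.906 for Cbr3. In Nr4a3, an activity-regulated nuclear receptor, it was library 4, with 0.838. The part of the GC slope in these gaps was not tested.

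Rgs11 differed between the inhibitors in the direct test with the trend removed, by 0.222 on the log2 scale (anti-miR-501-3p minus anti-miR-409-5p, higher in 4 of 4 libraries).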

How the results depend on the processing

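Leaving out each library in turn gave 1826 to 6110 genes called in raw counts, 501 to 2004 with the trend removed, 289 to 1237 that held and 56 to 191 held rises with a seed site. The lowest of each came without control 1. The difference between groups in mitochondrial share ranged from 0.919 to 1.13 percentage points and that in GC slope from -0.336 to -0.271. The direct test of the inhibitors called 0 genes in raw counts and 0 to 6 with the trend removed in these refits. DESeq2 called 3 and 25 there. With the replicate block the direct test called 252 and 189, and without each pair in turn 48 to 122 in both analyses (122, 48, 97 and 92 without pairs 1 to 4). That last refit was added after seeing the data.

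With the replicate block, pairing by number gave 5729 genes in raw counts, 1835 with the trend removed, 1166 that held and 190 held rises with a site. It ended the trend-removed call of 11 of 164 named genes and added 2, ended the raw call of 1, and changed no other call of theirs. A surrogate variable gave 3637 raw calls.

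Removing the trend on length alone left the GC trend in place, with 5683 genes called, 4552 held and 471 held rises with a site. It reversed Cdh10 (0.15), Dph6 (0.16), Btbd10 (0.16), Rbbp6 (0.10), Eif3e (0.125), Rpa3 (0.38), Snap25 (0.28), Calb1 (0.33), Homer1 (0.34), mt-Co1 (0.41) and Rian (0.17). With the median over transcripts 2006 genes were called and 1267 held, 752 of them among the 1044. Rbbp6 (0.035), Snap25 (0.10), Homer1 (0.18), Cdc42 (-0.00596) and Rian (0.053) reversed. The cause was not tested.

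Only 2 controls bound every comparison with control, and the microRNA genes inside Clcn5 had no counts in these libraries.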
